A study of Mus musculus with 2 samples.

Results

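The genes described here are 10 receptors and bridging proteins by which phagocytes bind dying cells: Mertk, Axl, Tyro3, Gas6, Pros1, Mfge8, Itgav, Itgb5, Stab1 and Cd36. They were chosen by symbol and not by a rule on their values, though earlier results of these data were known. All 10 were among the 32285 genes of the matrix. RNA was counted in single nuclei sorted as tumour-associated macrophages from mammary tumours of MYC-PyMT mice, in which S100a8-cre switches on a MYC allele, and of control-PyMT mice, with 1 sample per genotype. Mice of both genotypes carry PyMT, the polyoma middle T oncogene. Both were irradiated at 7 weeks of age, received bone marrow of Fcgr1-cre donors with a cre-dependent H2B-mCherry reporter, and ate a low protein diet for 6 weeks from 2 weeks after the transplant. The irradiated recipients can keep macrophages of their own, and the nuclei were sorted for mCherry, which marks donor cells with a history of Fcgr1 expression. No label ties the 2 wells of barcodes to a genotype, so 0 of 2 wells could be mapped. Both wells were therefore pooled, genotypes were not compared, and groups of nuclei were compared without a p-value.

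Phagocytes recognise dying cells by the phosphatidylserine that these expose on their surface. The receptor tyrosine kinases Tyro3, Axl and Mertk, known together as TAM, reach it through the soluble ligands Gas6 and protein S (gene Pros1), which bind the lipid at one end and the kinase at the other. The secreted protein Mfge8 bridges the same lipid to integrins of the alpha v chain (Itgav), among them the pair with the beta chain Itgb5, and the scavenger receptors Stab1 and Cd36 bind dying cells as well. In macrophages Mertk is best known for the silent clearance of dying cells, and Axl for its rise under inflammatory and interferon signals.

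Promoters of Mertk, Axl, Stab1 and Cd36 are shown because these 4 receptors, of the 5 genes so called, were higher in macrophage-like than in epithelial-like nuclei. Each sequence runs 5′ to 3′ on the gene's strand, from 250 bases before to 50 bases after the start site in RefSeq for GRCm38.p6. Capitals mark the core of the binding motif of PU.1, a factor that macrophages need (GAGGAA), and a half-site of MAF factors (TGCTGA), searched on both strands.
Mertk: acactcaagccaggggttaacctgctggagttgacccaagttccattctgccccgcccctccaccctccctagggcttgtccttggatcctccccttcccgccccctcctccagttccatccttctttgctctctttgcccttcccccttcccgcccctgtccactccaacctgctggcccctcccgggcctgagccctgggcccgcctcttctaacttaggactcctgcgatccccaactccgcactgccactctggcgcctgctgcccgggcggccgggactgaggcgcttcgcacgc
Axl: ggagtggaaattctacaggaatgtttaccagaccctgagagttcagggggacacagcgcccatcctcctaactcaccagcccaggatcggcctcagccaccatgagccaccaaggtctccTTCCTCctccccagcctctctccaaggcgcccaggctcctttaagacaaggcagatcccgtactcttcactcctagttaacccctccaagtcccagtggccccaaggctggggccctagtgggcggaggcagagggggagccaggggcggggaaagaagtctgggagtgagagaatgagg
Stab1: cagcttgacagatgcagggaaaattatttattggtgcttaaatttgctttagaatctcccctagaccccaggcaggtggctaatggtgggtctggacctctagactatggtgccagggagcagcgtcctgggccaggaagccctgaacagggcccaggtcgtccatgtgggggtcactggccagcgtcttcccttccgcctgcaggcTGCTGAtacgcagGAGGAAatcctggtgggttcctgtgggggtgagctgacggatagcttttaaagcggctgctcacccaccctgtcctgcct
Cd36: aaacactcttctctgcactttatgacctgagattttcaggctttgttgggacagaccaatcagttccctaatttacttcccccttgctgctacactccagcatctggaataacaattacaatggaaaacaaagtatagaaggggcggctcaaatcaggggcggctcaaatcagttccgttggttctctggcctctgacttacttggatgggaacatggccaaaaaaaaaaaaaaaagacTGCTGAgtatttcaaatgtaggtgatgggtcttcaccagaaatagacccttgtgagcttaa

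These windows lie at chr2:128698665-128698964 on the plus strand for Mertk, chr7:25788684-25788983 on the minus strand for Axl, chr14:31168592-31168891 on the minus strand for Stab1 and chr5:17835847-17836146 on the minus strand for Cd36. The PU.1 letters began at position -130 in Axl and at -30 in Stab1, and the MAF letters at -43 in Stab1 and -11 in Cd36. Neither was in the windows of Mertk and Itgb5, which were also higher in macrophage-like nuclei. Among the windows not shown, the PU.1 letters were in Mfge8, which was lower in macrophage-like nuclei. They were also at 2 places in Itgav, which was called neither higher nor lower. The PU.1 letters were thus not limited to genes higher in macrophage-like nuclei. The MAF letters were in no window but those of Stab1 and Cd36. Of 32851 promoters of the same length, 28.3% held the PU.1 letters and 19.5% the MAF letters. The letters TGACTCA (AP-1), in 5.20% of promoters, and CACGTG (the E-box of MYC and related factors), in 7.15%, were in none of the 10 windows. A match shows only that the letters are there. The Cd36 window starts inside the annotated gene, which has several start sites.

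The 10 genes lie at separate places in GRCm38. Mertk spans 103939 bases of chromosome 2 (128698956 to 128802894), Axl 31433 bases of chromosome 7 (25757273 to 25788705) and Tyro3 20372 bases of chromosome 2 (119797733 to 119818104). Gas6 is on chromosome 8 (13465374 to 13494490), Pros1 on chromosome 16 (62854307 to 62929346) and Mfge8 on chromosome 7 (79133768 to 79149060). Itgav is on chromosome 2 (83724397 to 83806916), Itgb5 on chromosome 16 (33829665 to 33949338), Stab1 on chromosome 14 (31139013 to 31168641) and Cd36 on chromosome 5 (17781690 to 17888801). Along 22084 bases, Itgav overlaps a transcript of the opposite strand, Gm13684, which had 402 UMIs against 3870 for Itgav. The strand used in counting is not given in the sources used here, so reads of these partners may not have been told apart. In nuclei much RNA is unspliced and long genes collect more counts, so levels are compared between groups of nuclei and not between genes.

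After filters, 1812 nuclei with 7342649 distinct molecules (UMIs) remained, 1377 in well 1 and 435 in well 2, with a median of 2493 and 2852 UMIs per nucleus. Clustering without the 10 genes and without 94 other genes of the pathway gave 9 clusters, named by markers. Macrophage-like were a resident-like cluster 2 (374 nuclei, led by Lyve1, Retnla and Ms4a8a), an inflammatory cluster 3 (362 nuclei, with Il1b and Nlrp3), an interferon cluster 6 (56), a cluster 8 with Gpnmb and cycling genes (51, named on 3 markers only) and a cluster 1 with no state above the others, called steady (391). Clusters 5 and 7 (195 and 54 nuclei) were epithelial-like, with 13 and 9 of 15 epithelial markers. Cluster 4 (318 nuclei, median 703 UMIs) held markers of both types, 9 of 15 epithelial and 6 of 11 macrophage markers. It stayed unnamed because its median depth was below the minimum set for naming. Cluster 9 (11) was T cell-like. The sort was for macrophages, so the epithelial-like nuclei go against the label. The wells were unevenly spread: 329 of the 374 resident-like nuclei came from well 2, while well 1 gave 385 of the steady and 359 of the inflammatory nuclei. 3 barcode sequences occurred in both wells. The macrophage-like class held 1234 nuclei and the epithelial-like class 249, of which 25 came from well 2. A finer clustering put 150 nuclei of cluster 5 in a set led by Tnfaip6, Gsg1l and Chrm3. The other 45 fell in a set led by Fst, Erg and Col17a1. Well 2 gave 1 of the 167 nuclei of the first finer set and 28 of the 51 of the second. Class ratios within a well therefore rest on a different mix of epithelial-like nuclei in each well, and the part of this was not tested.

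Levels are counts summed over a group of nuclei and scaled to its total (CPM), with exact 95% intervals that cover counting error only. A gene was called higher or lower past a 2-fold ratio with at least 20 UMIs in both groups together. Between macrophage-like and epithelial-like nuclei, 5 of the 10 genes were called higher in macrophage-like nuclei, beside 16.5% of 12821 genes tested, and 3 were called lower, beside 29.4%. The median log2 ratio of the 10 was 1.56, against -0.37 over all genes tested. Mertk, Axl, Itgb5, Stab1 and Cd36 were the higher genes, Tyro3, Gas6 and Mfge8 the lower ones, and Pros1 and Itgav were neither. In bulk sums of this kind, fewer expressing nuclei and less RNA per nucleus cannot be told apart.

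**Figure D1:**
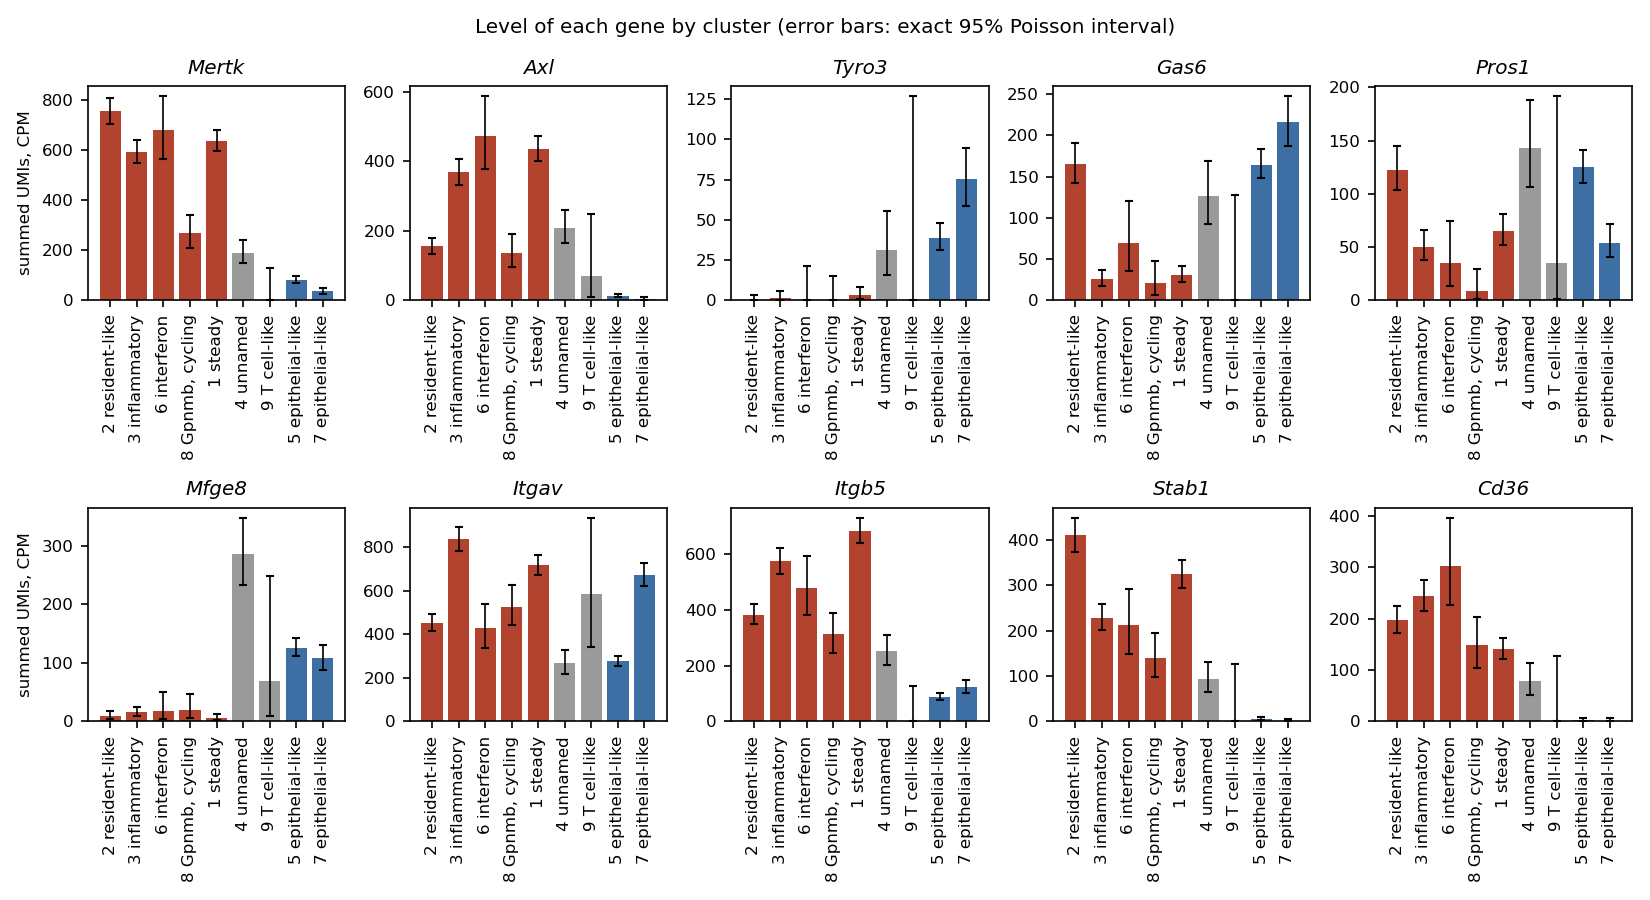
Level of each of the 10 genes (CPM, vertical axis, a separate scale per gene) in the 9 clusters, with macrophage-like clusters in red, unnamed and T cell-like in grey and epithelial-like in blue. Error bars are exact 95% Poisson intervals. Mertk stands between 268 and 754 CPM in the macrophage-like clusters and at 80.4 and 33.9 CPM in the epithelial-like ones, while Tyro3 and Mfge8 are low in every macrophage-like cluster.

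Mertk was at 637 CPM in macrophage-like nuclei and 65.9 CPM in epithelial-like nuclei, a ratio of 9.67 (95% interval 8.37 to 11.2). Its order was resident-like (754 CPM), interferon (681), steady (636) and inflammatory (592), in which each neighbour's interval overlapped the next, followed by the Gpnmb and cycling cluster (268) and the unnamed cluster (188). Cluster 5 had 80.4 CPM, above cluster 7 with 33.9 CPM, where 5 nuclei held 78.1% of its 32 UMIs. No UMI was seen in the T cell-like nuclei, whose 29053 UMIs allow up to 103 CPM at 3 counts, while the exact interval ends at 127 CPM. The level in epithelial-like nuclei was 10.3% of that in macrophage-like nuclei. For the 11 macrophage markers this percentage ran between 1.23% (Adgre1) and 5.03% (C1qc), with 3.55% for their sum, so Mertk stood above all 11. The part of free RNA in these values was not tested.

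Axl was at 319 CPM in macrophage-like nuclei and 9.56 CPM in epithelial-like nuclei, a ratio of 33.4 whose interval began at 23.1. It was highest in the interferon (475 CPM), steady (437) and inflammatory (369) clusters, with overlapping intervals between neighbours, and lower in the resident-like (155) and the Gpnmb and cycling cluster (136). The epithelial-like level was 3.00% of the macrophage-like level, inside the range of the macrophage markers. Within well 1 the ratio was 53.7 and within well 2 it was 3.70, from 8 UMIs in the 25 epithelial-like nuclei of well 2.

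Tyro3 had the opposite distribution. It was at 1.27 CPM in macrophage-like nuclei (5 UMIs) and 50.1 CPM in epithelial-like nuclei (152 UMIs), a ratio of 0.025 (0.008 to 0.061). Of the epithelial-like clusters, number 7 had 75.2 CPM and number 5 had 38.8 CPM, with intervals apart. The resident-like cluster had no UMI of Tyro3, which allows up to 2.61 CPM at 3 counts of its total, while the exact interval ends at 3.20 CPM. The level in macrophage-like nuclei was 2.54% of that in epithelial-like nuclei, beside 6.55% for the sum of 15 epithelial markers.

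The ligand Gas6 was at 69.3 CPM in macrophage-like nuclei and 181 CPM in epithelial-like nuclei, a ratio of 0.384 (0.331 to 0.445). The class value includes the resident-like cluster, at 165 CPM, whose interval overlapped that of epithelial-like cluster 5 (165 CPM), while the steady (29.9) and inflammatory (25.0) clusters were low, and the Gpnmb and cycling cluster had only 5 UMIs. In cluster 7, at 216 CPM, a single nucleus held 58 UMIs, 28.4% of the total. Within well 1 the levels were 32.2 CPM in macrophage-like nuclei and 184 CPM in epithelial-like nuclei, and within well 2 they were 149 and 134 CPM, a ratio of 1.11, so the call was lost in well 2, whose macrophage-like nuclei are mostly resident-like. Without the resident-like cluster the ratio was 0.164.

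Protein S, from Pros1, was at 72.9 CPM in macrophage-like nuclei and 103 CPM in epithelial-like nuclei, a ratio of 0.709 (0.602 to 0.835) that was not called. The unnamed cluster (143 CPM), cluster 5 (125) and the resident-like cluster (122) had overlapping intervals at the top. Steady nuclei followed at 65.1 CPM. Its ratio turned direction between wells, at 0.513 in well 1 and 1.83 in well 2.

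The integrin bridge Mfge8 was at 11.0 CPM in macrophage-like nuclei and 120 CPM in epithelial-like nuclei, a ratio of 0.091 (0.065 to 0.125), with 0.110 in well 1 and 0.033 in well 2. Its macrophage-like level, 9.11% of the epithelial-like level, lay within the range of 14 of the 15 epithelial markers, which ran from 0.78% (Prlr) to 9.41% (Cldn3), with Esr1 apart at 82.7%. The highest level of any cluster was 287 CPM in the unnamed low-UMI cluster 4. A finer clustering put this in a set of 74 nuclei led by Gjc1, Col5a3 and Meg3, at 479 CPM (380 to 597). This set met 7 of 15 epithelial, 3 of 6 fibroblast and 3 of 5 pericyte markers. The naming rule called it epithelial-like, but its nuclei are not in the epithelial-like class compared here. In cluster 4 as a whole, 5 nuclei held 47.1% of the 102 Mfge8 UMIs, and 1 of them 19.6%. The set also had 13690 CPM of mitochondrially encoded RNA, and the part of these in the Mfge8 level was not tested.

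Integrin chains were present in both classes to different degrees. Itgb5 was at 534 CPM in macrophage-like nuclei and 98.9 CPM in epithelial-like nuclei, a ratio of 5.41 (4.79 to 6.12), with the highest level in steady nuclei (685 CPM). Within wells that ratio was 6.44 in well 1 and 2.26 in well 2. The value of well 2 rests on 33 UMIs in 25 epithelial-like nuclei, of which 5 held 69.7%. Its epithelial-like level was 18.5% of the macrophage-like level, above all 11 macrophage markers. Itgav was at 647 CPM in macrophage-like nuclei and 402 CPM in epithelial-like nuclei, a ratio of 1.61 whose interval ended at 1.73. It was at 838 CPM in inflammatory nuclei, 717 in steady nuclei and 453 in resident-like nuclei. The epithelial-like clusters differed, with 674 CPM in the smaller one (7) and 278 CPM in the larger one (5). Within well 2 the ratio of Itgav was 5.38, from 18 UMIs in epithelial-like nuclei.

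The scavenger receptors had the largest ratios of the 10 genes. Stab1, an endocytic receptor also known from sinusoidal endothelium, was at 307 CPM in macrophage-like nuclei and 3.63 CPM in epithelial-like nuclei, a ratio of 84.7 (47.2 to 170). Its order was resident-like (410 CPM), steady (324) and inflammatory (229), with intervals apart. Cd36, which also takes up fatty acids and oxidised lipoproteins, was at 192 CPM in macrophage-like nuclei and 2.31 CPM in epithelial-like nuclei, a ratio of 83.3 (40.2 to 208). It was highest in interferon (303 CPM) and inflammatory nuclei (244), then in resident-like (197) and steady nuclei (140). Intervals of neighbours overlapped down to the resident-like cluster. In the interferon cluster all 53 Cd36 UMIs came from well 1, where 5 of 46 nuclei held 66.0% of them. Epithelial-like levels were 1.18% (Stab1) and 1.20% (Cd36) of the macrophage-like levels, below the lowest macrophage marker. Within well 2 alone, with 2 and 1 UMIs in epithelial-like nuclei, the ratios were 35.4 for Stab1 and 37.2 for Cd36. The ratio of Cd36 was 12.8 when the CPM of single nuclei was averaged, since a single UMI weighs more in a shallow nucleus.

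**Figure D2:**
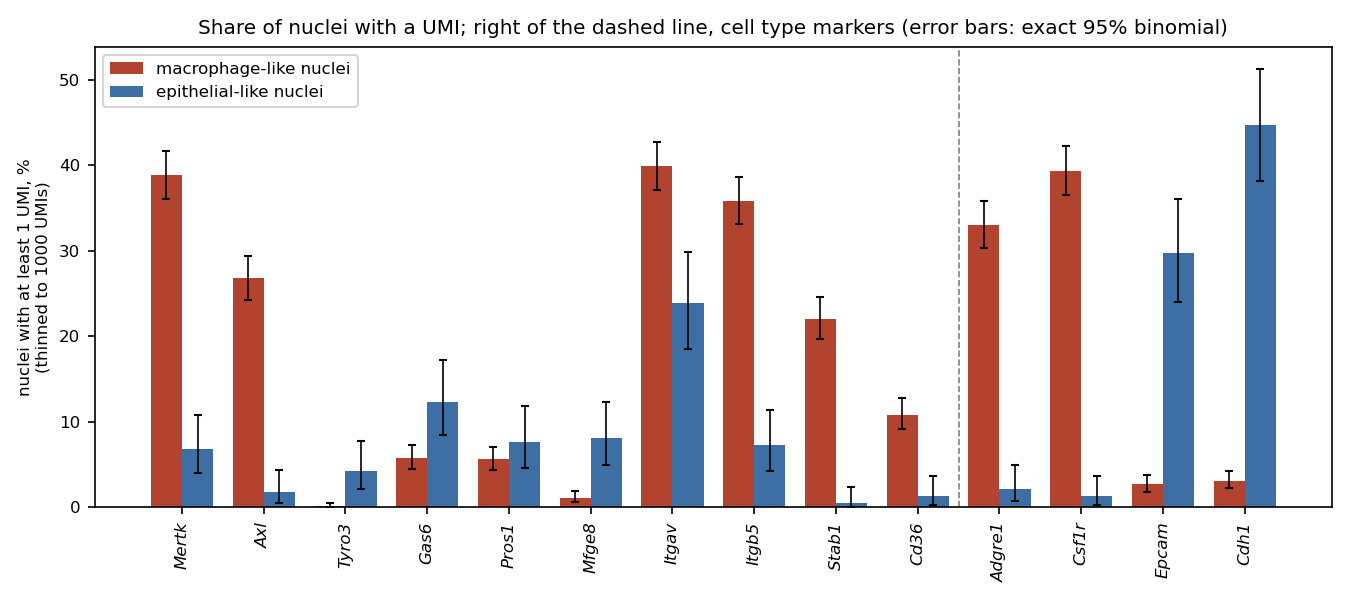
Share of nuclei with at least 1 UMI after thinning each nucleus to 1000 UMIs (percent, vertical axis) in 1166 macrophage-like (red) and 235 epithelial-like (blue) nuclei, with exact 95% binomial intervals. To the right of the dashed line are markers that the other cell type should lack. Mertk was seen in 38.9% of macrophage-like and 6.81% of epithelial-like nuclei.

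Shares of nuclei were compared at equal depth by thinning each nucleus to 1000 UMIs, which kept 1166 macrophage-like and 235 epithelial-like nuclei. Mertk was then seen in 38.9% of macrophage-like nuclei (36.0 to 41.7) and 6.81% of epithelial-like nuclei (3.94 to 10.8), and unthinned in 59.8% and 29.3%. Beside it, macrophage markers were seen in epithelial-like nuclei at 2.13% for Adgre1, 1.28% for Csf1r and 20.9% for the abundant Cd74. Axl was seen in 26.8% of macrophage-like and 1.70% of epithelial-like nuclei, Stab1 in 22.0% and 0.43%, and Cd36 in 10.8% and 1.28%. The epithelial-like shares of Axl, Stab1 and Cd36 were at or below that of Adgre1 there. Itgb5 was seen in 35.9% of macrophage-like and 7.23% of epithelial-like nuclei, and Itgav in 39.9% and 23.8%. The ligands were sparse, with Gas6 in 5.75% of macrophage-like and 12.3% of epithelial-like nuclei and Pros1 in 5.57% and 7.66%. Mfge8 was seen in 1.11% of macrophage-like nuclei, below Epcam (2.66%) and Cdh1 (3.09%) there, and in 8.09% of epithelial-like nuclei. Tyro3 was seen in 1 of 1166 macrophage-like nuclei and in 4.26% of epithelial-like nuclei. At least 1 TAM kinase was seen in 638 of 1166 macrophage-like nuclei and 30 of 235 epithelial-like nuclei. Median depth before thinning was 2835 UMIs in macrophage-like and 5675 UMIs in epithelial-like nuclei.

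Among macrophage-like nuclei, the TAM ligands were high in the resident-like cluster and Axl was low there. Of 9 genes with enough UMIs, 2 were called higher in resident-like than in the other 860 macrophage-like nuclei, beside 8.48% of 10155 genes tested, and 1 was called lower, beside 8.81%. Gas6 was at 165 CPM in resident-like nuclei and 29.6 CPM in the others, a ratio of 5.58 (4.28 to 7.32), and Pros1 at 122 and 52.3 CPM, a ratio of 2.34 (1.84 to 2.97). Axl was at 155 CPM in resident-like nuclei and 387 CPM in the others, a ratio of 0.402 (0.341 to 0.471). Differences under 2-fold were seen for Mertk, at 754 and 589 CPM (ratio 1.28), Stab1, at 410 and 264 CPM (1.55), Itgav, at 453 and 727 CPM (0.623), and Itgb5, at 383 and 597 CPM (0.641), each with an interval that left out 1. For Cd36, at 197 CPM in resident-like nuclei and 190 CPM in the others, the ratio was 1.04 (0.884 to 1.21). Monocyte markers moved with this cluster: their summed level was 857 CPM in it and between 15.4 and 177 CPM in the other macrophage-like clusters, and their part in the result was not tested.

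**Figure D3:**
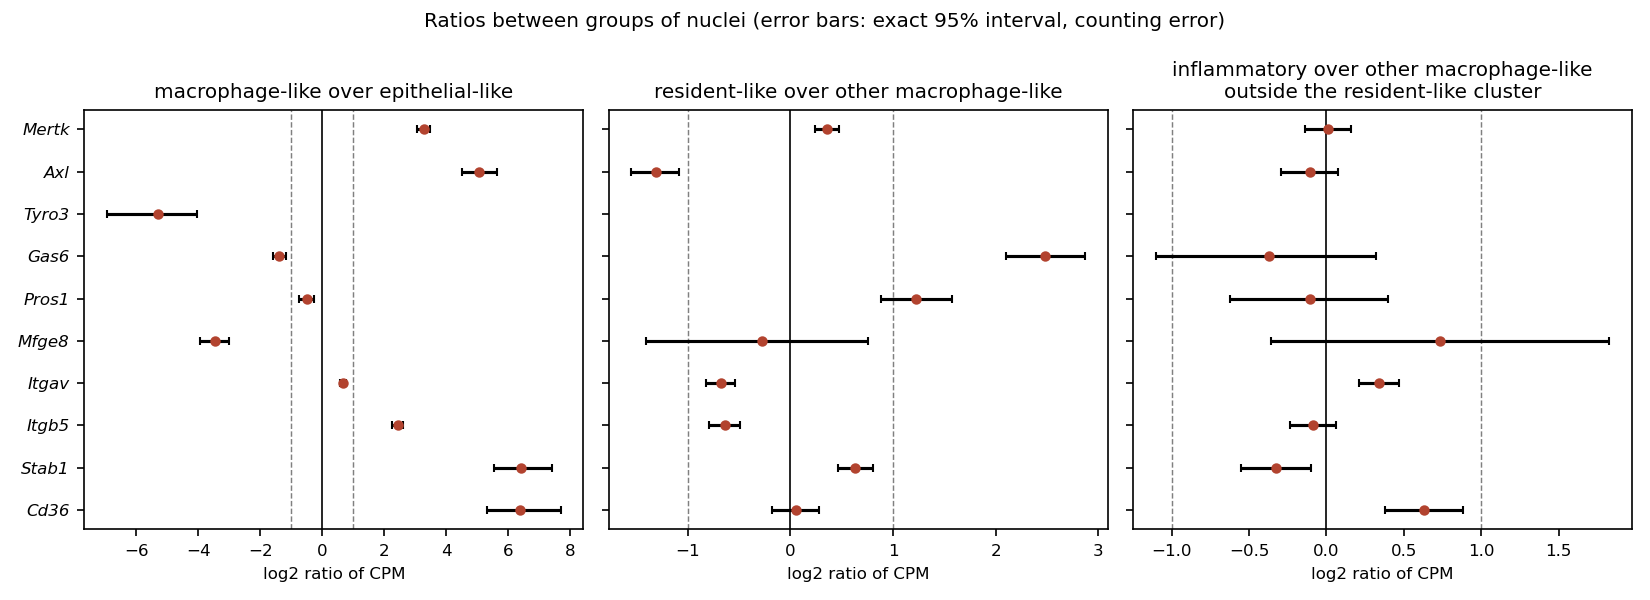
Log2 ratio of CPM for each gene (horizontal axis, a separate scale per panel) between macrophage-like and epithelial-like nuclei, between resident-like and other macrophage-like nuclei, and between inflammatory and other macrophage-like nuclei outside the resident-like cluster. Points carry exact 95% intervals and dashed lines mark 2-fold. Gas6, at 2.48, lies farthest right in the middle panel, and no gene passes 2-fold in the right panel. Tyro3 had under 20 UMIs in the middle and right panels and is not drawn there.

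The wells did not give the same picture of the resident-like cluster. Gas6 was higher in both, at 77.8 CPM in resident-like nuclei and 29.9 CPM in the others of well 1 (ratio 2.61, from 10 UMIs in 45 nuclei), and at 176 and 26.5 CPM in well 2 (ratio 6.63). Pros1 was at 31.1 CPM in resident-like nuclei and 55.4 CPM in the others in well 1 (ratio 0.562), and at 134 and 17.7 CPM in well 2 (ratio 7.57, from 4 UMIs in the 53 other nuclei), so its direction turned. Axl was lower in both wells but past 2-fold in neither, at ratios of 0.616 in well 1 and 0.756 in well 2. Mertk turned as well, at 358 and 602 CPM in well 1 and 803 and 442 CPM in well 2. Cd36 was at 62.3 CPM in resident-like nuclei and 199 CPM in the others in well 1, and at 214 and 88.5 CPM in well 2. Stab1 was higher in both, at ratios of 1.60 and 2.36. Well and state are largely held together in these nuclei, and the wells may differ in genotype, library or both, which cannot be told apart.

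A finer clustering put most of the resident-like cluster into 3 sets that differed in their levels of these genes. Of the remaining nuclei, 14 joined a set led by genes such as Gpnmb and 1 the interferon set. The first, of 118 nuclei (116 from well 2), was led by Lyve1, C6, Ednrb and Fcna, with Lyve1 at 199 CPM and F13a1 at 3020 CPM. The second, of 115 nuclei (28 from well 1 and 87 from well 2), was led by Gm6209, Igf1 and Fcrls and had no UMI of Lyve1 or Retnla. The third, of 126 nuclei (14 from well 1 and 112 from well 2), was led by Olr1, Flt3 and Hdc, with Ccr2 at 1057 CPM, and its finer cluster met 6 of 8 monocyte, 4 of 8 dendritic cell and 4 of 11 macrophage markers. They are called the Lyve1, Igf1 and Ccr2 sets, and the markers of the resident-like state are mostly those of the Lyve1 set. By the same naming rule, only the finer cluster of the Lyve1 set was resident-like. That of the Igf1 set was steady and that of the Ccr2 set monocyte-like. Resident-like nuclei elsewhere in the text are all nuclei of cluster 2, so they include these sets. The Lyve1 set met 9 of 11 macrophage markers and 5 of 8 monocyte markers, with Ccr2 at 499 CPM, and the summed monocyte markers were at 956 CPM in it, 110 CPM in the Igf1 finer cluster and 1553 CPM in the Ccr2 finer cluster. Their part in the levels that follow was not tested.

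Gas6 was at 323 CPM in the Lyve1 set, 93.4 in the Igf1 set and 19.0 in the Ccr2 set, with intervals apart. Pros1 was at 233 CPM in the Lyve1 set, against 38.6 in the Igf1 set and 57.1 in the Ccr2 set. Cd36, which had a ratio of 1.04 for the cluster as a whole, was at 411 CPM (356 to 473) in the Lyve1 set, 35.4 CPM (17.7 to 63.4) in the Igf1 set and 57.1 CPM (33.9 to 90.3) in the Ccr2 set. Both TAM ligands and Cd36 were thus highest in the Lyve1 set of the 3 sets. Gas6 in the Igf1 set was still above the 29.6 CPM of the other macrophage-like nuclei, with intervals apart. Mertk had overlapping intervals in the Lyve1 (906 CPM) and Igf1 (921 CPM) sets and was lower in the Ccr2 set (422 CPM). Stab1 followed Mertk, at 476, 570 and 168 CPM. Axl, Itgav and Itgb5 were highest in the Igf1 set, at 274, 676 and 625 CPM, and in the Lyve1 set were at 109, 250 and 227 CPM. Within the Igf1 set the CPM intervals of the wells lay apart for Mertk, at 427 CPM in well 1 and 1120 CPM in well 2. The same held for Itgav, at 337 and 813 CPM, and for Itgb5, at 348 and 736 CPM. Of the 28 nuclei from well 1, however, 5 held 76.7% of the 30 Itgav UMIs and 5 held 54.8% of the 31 Itgb5 UMIs. When shares of nuclei were taken after thinning to 1000 UMIs, the intervals of the wells overlapped for Mertk, Itgav and Itgb5. For Mertk they ran from 30.6% to 69.4% in well 1 and from 53.5% to 75.3% in well 2.

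**Figure D4:**
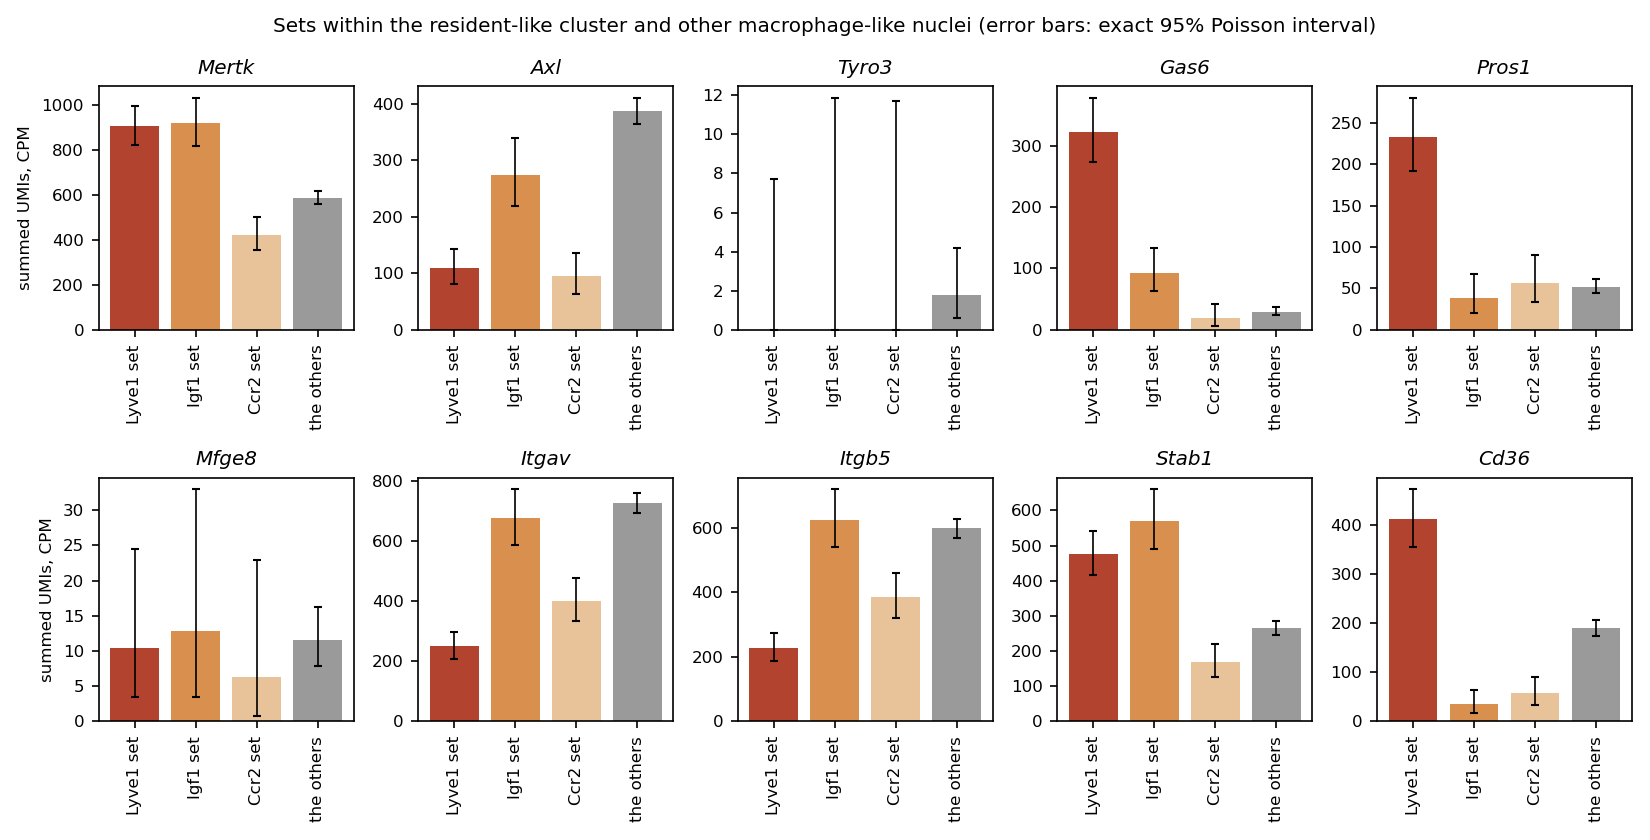
Level of each gene (CPM, vertical axis, a separate scale per gene) in the Lyve1, Igf1 and Ccr2 sets of the resident-like cluster and in the other macrophage-like nuclei, with exact 95% Poisson intervals. Gas6, Pros1 and Cd36 stand highest in the Lyve1 set, at 323, 233 and 411 CPM. With both wells pooled, Axl stands lower in all 3 sets than in the others, of which 807 of 860 came from well 1.

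Cd36 also varied outside the resident-like cluster. At the finer resolution it was at 101 CPM (84.2 to 121) in the largest steady set of 371 nuclei, led by Kynu, Capn3 and Ptgs1. It was at 272 CPM (235 to 315) in 223 inflammatory nuclei with Il1b and Nlrp3, and at 306 CPM (255 to 364) in 150 nuclei led by Acod1, Slc7a11 and Mmp12. Of these 150 nuclei, 127 were also of inflammatory cluster 3 and 15 of steady cluster 1, while the naming rule called the set steady. Nearly all nuclei of these 3 sets came from well 1, with 5, 2 and 0 from well 2. The Gpnmb and cycling cluster also came apart. Of its 51 nuclei, 33 fell in a finer set of 49 led by genes such as Gpnmb, which also took 14 resident-like nuclei and met 1 of 11 macrophage markers, so it stayed unnamed. The other 18 fell in a set of 20 with cycling genes. Mertk was at 353 CPM in the set with Gpnmb and 114 CPM in the cycling set, with intervals apart. Well 2 gave 47 of the 49 nuclei and well 1 gave 18 of the 20, so well and set go together here too.

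Inflammatory nuclei had none of these genes past 2-fold. Of 9 genes tested, 0 were called in either direction between inflammatory and the other 498 macrophage-like nuclei outside the resident-like cluster, beside 4.71% called higher and 12.9% called lower of 9236 genes. Mertk was at 592 CPM in inflammatory nuclei and 588 CPM in the others, a ratio of 1.01 (0.910 to 1.11), and Axl at 369 and 398 CPM, a ratio of 0.928 (0.817 to 1.05). Cd36 was at 244 CPM in inflammatory nuclei and 158 CPM in the others (ratio 1.55, 1.30 to 1.84), and Itgav at 838 and 661 CPM (1.27, 1.16 to 1.39). Stab1 was lower, at 229 and 286 CPM (0.799, 0.682 to 0.935). The median log2 ratio was -0.09 for the 9 genes and -0.34 over all genes tested.

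The rest of the pathway was read from 94 genes in 8 lists. Between macrophage-like and epithelial-like nuclei, 86 had enough UMIs, 44 were called higher and 11 lower, beside 16.5% and 29.4% of all genes tested, with a median log2 ratio of 1.05 against -0.37. Of 13 other receptors for dying cells, 10 were called higher, among them Havcr2, the phosphatidylserine receptor TIM-3, at 258 CPM in macrophage-like and 4.61 CPM in epithelial-like nuclei, and Cd300lf, an inhibitory lipid receptor, at 128 and 0.659 CPM. Of 15 genes of the engulfment machinery, 9 were called higher and 2 lower. The Rac activator Dock2 was at 1685 CPM in macrophage-like and 17.8 CPM in epithelial-like nuclei, while Gulp1, an adaptor of engulfment receptors, was at 0.765 and 79.4 CPM. Of 7 receptors for find-me signals 6 were called higher, such as the nucleotide receptors P2ry6, at 175 and 4.28 CPM, and P2ry12, at 212 and 9.56 CPM. Sirpa, the receptor of the don't-eat-me signal Cd47, was at 798 CPM in macrophage-like and 62.6 CPM in epithelial-like nuclei. The complement genes C1qa, C1qb and C1qc also served as macrophage markers for naming the clusters, so their calls are not independent of the grouping.

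Of 78 pathway genes tested between resident-like and other macrophage-like nuclei, 15 were called higher and 4 lower, beside 8.48% and 8.81% of all genes tested. Well 2 gave 329 of the 374 resident-like nuclei but 53 of the 860 others, and these pathway ratios are not split by well. The cluster also holds the monocyte-like Ccr2 set, and the part of well and set in these calls was not tested. Itgam, for example, was at 612 CPM in the Lyve1 set, 476 in the Ccr2 set and 267 in the Igf1 set. Other receptors for dying cells made up 7 of the higher genes, out of 11 tested. The receptors called higher included Lrp1, a receptor of calreticulin-coated cells, at 666 CPM in resident-like nuclei and 320 CPM in the others. Itgam, the alpha chain of complement receptor 3, was at 462 and 127 CPM, and Cd300lb at 99.0 and 25.3 CPM. Mrc1, at 1687 and 117 CPM, is a marker of the state and was used to name it. Thbs1, a bridge to Cd36 and alpha v integrins, was at 121 CPM in resident-like nuclei and 27.8 CPM in the others. Havcr2 was lower, at 129 and 312 CPM. Adam17, the protease that sheds Mertk from the cell surface, was at 254 CPM in resident-like nuclei and 518 CPM in the others, a ratio of 0.489. The others include the inflammatory cluster, whose higher Adam17 level is given below. Against the others without that cluster, whose level is also given below, the difference was under 2-fold. The lower call therefore needed the inflammatory cluster.

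In inflammatory nuclei 4 of 74 pathway genes were called higher and 4 lower, beside 4.71% and 12.9% of all genes tested, so the share called higher was near that of all genes and the share called lower was below it. Adam17 was among the higher ones, at 757 CPM in inflammatory nuclei and 375 CPM in the others, a ratio of 2.02 (1.82 to 2.24). The others were Cd14, a lipopolysaccharide co-receptor that also tethers dying cells, at 197 and 61.2 CPM, the lysolipid receptor Gpr132, at 121 and 34.1 CPM, and Socs3, an inhibitor of cytokine signalling, at 276 and 86.7 CPM. The lower genes included P2ry6, at 97.0 and 222 CPM, Thbs1, at 15.4 and 35.2 CPM, and Mrc1, at 51.9 and 155 CPM.

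Genes with the most similar level across the 9 clusters were found by Pearson correlation of log2(CPM + 10) among 8918 genes. This describes 9 points that share the same libraries and clusters. Mertk was closest to Sirpa, Pla2g7 and Abcc5, each at 0.99, Axl to Cd72 (0.99), Gatm and Ctss (0.98 each), and Stab1 to Btk, Kcnk13 and Wdfy4. Cd36 was closest to Gm46224, Irf5 and Cd300lf, and Itgb5 to Gna12, Ifnar2 and Tceanc2. Tyro3 was closest to Ltbp2, Parm1 and Pde9a, Mfge8 to Polr2f and Cd24a, and Gas6 to Evi5l, Gab1 and Ptpn18. Pros1 (Got2, 0.88) and Itgav (Arhgap27, 0.83) had the least similar partners.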

How the data were processed

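The authors deposited UMI counts per gene and barcode as a matrix. The submitters' processing notes name Cell Ranger 5.0 and the build mm10, and software version 5.0.1 stands in the matrix, per the file headers. Whether introns or strand entered the counting is not given in the sources used here. The 10 genes, the lists and the markers were chosen with earlier results of these data known, and the scoring of markers was set after clusters had been seen.

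Barcodes under 500 UMIs (11), under 300 genes (5) or over 5% mitochondrially encoded UMIs (9) were removed, 21 of 1838 in all, and Scrublet (scanpy 1.11.5), run per well, removed 5 more as doublets, 0 in well 1 and 5 in well 2. With 0 calls beside 1377 nuclei kept in well 1, the caller may have missed doublets. Doublets may therefore remain in the groups, and their number was not tested. Counts were scaled to 10000 and logged, and Leiden clustering (resolution 0.5, finer 1) used 2000 variable genes, 30 principal components and 15 neighbours. The 10 genes and the 94 pathway genes were left out of it. A cluster was named from at least 3 markers, each with 5 UMIs, 20 CPM and 0.5 of its highest cluster level. A cluster with a median depth under 1/3 of that of all nuclei was left unnamed. C1qa, C1qb, C1qc, Mrc1 and Pecam1 are both pathway genes and markers. Sums were compared as CPM with exact Poisson, conditional binomial and Clopper-Pearson intervals (Python 3.11.15, scipy 1.17.1). A gene at 0 was set to 3 counts. Ratios and intervals were run on simulated independent Poisson counts. The intervals assume that same model, so the run cannot show how they cover UMIs that are clumped in single nuclei. Named pathway genes were, per list and comparison, up to 3 called genes with most UMIs and up to 3 with the largest ratio among those with at least 50 UMIs, and a selection of these is given. Some genes that the rules name are not reported here.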

Additional observations from a re-analysis of the deposited data

How the results depend on the processing

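Counts of called genes were recomputed under 16 other settings. Between macrophage-like and epithelial-like nuclei, the 5 higher genes were called under every setting, while the lower count, 3 in the report, was 1 when nuclei were thinned to 1000 UMIs and 1 in well 2 alone; in both, Tyro3 had under 20 UMIs and Gas6 did not reach 2-fold. At a 3-fold threshold this lower count was 2, without Gas6. Between resident-like and other macrophage-like nuclei, the higher count, 2 in the report, was 1 with no filter on nuclei, at resolution 0.3, with another seed, when thinned and at a 3-fold threshold, and 4 in well 2 alone. The lower count there, 1 in the report, was 2 with the 10 genes and the pathway kept in the clustering, 3 at resolution 1.0, 3 in well 1 alone, and 0 in well 2 alone and at 3-fold. Between inflammatory and the other nuclei, where 0 were called, the higher count was 2 with the genes kept in the clustering and 1 at resolution 0.3, with another seed and without cluster 8, the lower count was 1 at resolution 1.0 and 1 with a minimum of 1 UMI, and well 2 alone gave no value, with under 10 inflammatory nuclei. The settings that leave out cluster 2 or cluster 8 were chosen after seeing the data, and leaving out cluster 2 gives no resident-like value. For called genes a direction turned in 2 cases: the log2 ratio of Pros1 between resident-like and other nuclei was -0.83 in well 1 alone, and that of Gas6 between macrophage-like and epithelial-like nuclei was 0.16 in well 2 alone. Gas6 was called higher in resident-like nuclei under all 15 settings that gave a value, at ratios between 2.61 and 9.06. Axl was called lower there under 10 of 15 and Pros1 higher under 9 of 15. Unless stated, the cause of a change was not tested. No paired analysis was possible because each genotype has 1 sample and no column carries a replicate number.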
